A study of Mus musculus with 2 samples.

Results

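The Zfp-named zinc finger genes were followed through nuclei of intestinal CD4+ effector T-cell sorts of mice with floxed Zfp362, with or without Cre. Members were all gene rows whose name is Zfp followed only by digits, with at least 50 unique molecular identifiers (UMIs, counted RNA molecules) summed over all barcodes of both libraries. Zfp362 itself was left out. The rule gave 213 genes of 364 rows of that name and of 32285 gene rows in all, and 350 of the 364 had at least 1 UMI. Just inside the minimum lay Zfp937 and Zfp27 with 51 UMIs each and Zfp65 with 52, and just outside it Zfp651 with 49, Zfp422 with 48 and Zfp790 with 47.

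The knockout library came from CD4creZfp362flox/flox mice, where Cd4 regulatory sequence drives Cre, and the control library from Zfp362flox/flox mice, so both carry the floxed alleles and only the first carries Cre. Mice were 26 to 33 weeks old, colon and small intestine were pooled, and 7 mice are named for the study, whether in each genotype or in all is not stated. Cells negative for CD8a, CD11c, CD45R and F4/80 and positive for CD4 and CD44 but not CD62L were sorted, and RNA and accessible chromatin were read from the same nuclei with the 10x Multiome kit. With 1 library per genotype no test across animals was possible, and every interval given covers counting error only.

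The knockout library held 2391 barcodes and 9348999 UMIs and the control library 4223 barcodes and 10803590 UMIs. The libraries shared 11 barcode sequences. After filtering, 2346 knockout and 4176 control nuclei were kept. Clusters fell into a Cd3-positive population (1644 knockout and 2991 control nuclei) and a Cd3-low population with markers of innate lymphoid cells (674 knockout and 1162 control nuclei). A Cd3d, Cd3e or Cd3g UMI was found in 79.6% of knockout and 78.8% of control nuclei of the Cd3-positive population, against 9.20% and 9.04% of the Cd3-low one. Zfp362 had 50 UMIs in knockout and 77 in control Cd3-positive nuclei (log2 ratio -0.48, 95% interval -1.03 to 0.05), so the deletion was not shown by the gene's UMI total, and the sources used here do not give which exons are floxed.

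One cluster stands apart and touches results below. Cluster 4 had a median of 5610 UMIs per nucleus and held 50.2% of the knockout and 26.5% of the control UMIs of Cd3-positive nuclei. It carried T-cell markers at 4682 CPM (UMIs scaled to 1000000 UMIs of the same nuclei), below every other Cd3-positive cluster (5625 to 10170 CPM). It also carried the innate-lymphoid genes Kit at 297 CPM and Il1r1 at 360 CPM, which reached at most 67.1 and 77.9 CPM in the other Cd3-positive clusters. A mixture of nuclei of both kinds was not tested. Together with the small dividing cluster 19 it forms the high-UMI clusters that are left out where stated.

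Zfp is the mouse prefix for zinc finger protein. Most proteins with this name hold C2H2 fingers, short folds around a zinc ion that sit in tandem and read DNA bases. Many carry a KRAB box at the start of the protein, which binds Trim28 and through it Setdb1 and HP1 proteins, and silences chromatin at retroelements and imprinted genes. KRAB genes lie in tandem arrays that grew by duplication, whereas most others are single, older genes with varied roles in transcription or RNA handling. In lymphocytes the best known bearer of the name is Zfp36 (tristetraprolin), whose CCCH fingers bind AU-rich elements of cytokine mRNAs and speed their decay.

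A match to the KRAB A box in the longest reading frame of their transcripts (GENCODE M21) was found in 113 members, with a median of 12 C2H2 patterns (range 2 to 33). The 100 members without a match had a median of 7 patterns (range 0 to 37). A further Zfp-named gene lay within 200 kb of 75.2% of the KRAB members and 32.0% of the others. Chromosome 7 held 47 members and chromosome 17 held 30. Sequence of 24 members overlapped other transcripts in over 20% of their 31-base words, 22 of them KRAB genes, and their counts are uncertain because the counting could split or drop shared reads. Zfp934 (43.8%), Zfp932 (48.3%) and Zfp429 (40.0%) are among them. Another GENCODE M21 gene overlaps 49 members on the same strand, 26 of them KRAB genes, and reads there could be ambiguous as well.

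The promoters of 6 members follow because the results turn on them, and in each a peak of accessible chromatin in the control library overlaps the printed bases. Zfp57 has other listed RefSeq starts whose preceding bases overlap no such peak in either library. Zfp53, Zfp281 and Zfp260 had more RNA in Cd3-positive nuclei with nearly the same promoter accessibility in both populations. Zfp52 lies near Zfp53 with the opposite RNA ratio. Zfp36 and Zfp57 had more RNA in Cd3-low nuclei, with promoter accessibility that was nearly the same (Zfp36) or also higher there (Zfp57). Each line gives the 250 bases before a RefSeq gene start on GRCm38.p6, written 5′ to 3′ on the gene's strand. They lie at chr17:21488738-21488987 (plus strand), chr17:21535289-21535538 (plus strand), chr1:136624651-136624900 (plus strand), chr7:30094826-30095075 (plus strand), chr17:37002275-37002524 (plus strand) and chr7:28379229-28379478 (minus strand). Capitals mark matches on either strand to 8 motifs: the GC box GGGCGG, the CCAAT box, the ETS core CCGGAA, the Staf-motif core ACTACA, the TATA box TATAAA, the CRE core TGACGT, the NRF1 core TGCGCA and the YY1 core AAGATGG.
Zfp53: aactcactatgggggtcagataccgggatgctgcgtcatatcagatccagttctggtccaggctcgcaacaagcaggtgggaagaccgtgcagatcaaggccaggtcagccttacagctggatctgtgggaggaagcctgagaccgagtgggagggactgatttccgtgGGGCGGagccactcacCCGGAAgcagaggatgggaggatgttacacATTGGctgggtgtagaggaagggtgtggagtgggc
Zfp52: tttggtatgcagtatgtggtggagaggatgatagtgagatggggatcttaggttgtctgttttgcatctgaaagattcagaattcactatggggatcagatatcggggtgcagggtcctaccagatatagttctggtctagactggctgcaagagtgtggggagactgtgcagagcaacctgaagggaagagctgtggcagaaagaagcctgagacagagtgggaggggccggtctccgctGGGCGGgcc
Zfp281: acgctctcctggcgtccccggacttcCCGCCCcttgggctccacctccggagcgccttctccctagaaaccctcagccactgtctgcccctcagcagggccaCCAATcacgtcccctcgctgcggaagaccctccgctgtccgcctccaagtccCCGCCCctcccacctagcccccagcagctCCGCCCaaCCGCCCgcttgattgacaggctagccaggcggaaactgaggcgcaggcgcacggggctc
Zfp260: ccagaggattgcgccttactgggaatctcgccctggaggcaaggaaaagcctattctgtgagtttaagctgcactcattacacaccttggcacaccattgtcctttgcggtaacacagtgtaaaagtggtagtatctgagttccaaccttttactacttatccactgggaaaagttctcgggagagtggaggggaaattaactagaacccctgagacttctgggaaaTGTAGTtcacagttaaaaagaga
Zfp57: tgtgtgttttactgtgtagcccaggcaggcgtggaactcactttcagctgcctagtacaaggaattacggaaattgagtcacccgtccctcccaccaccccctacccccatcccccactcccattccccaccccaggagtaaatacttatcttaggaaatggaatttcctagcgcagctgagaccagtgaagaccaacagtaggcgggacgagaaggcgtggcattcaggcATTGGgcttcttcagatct
Zfp36: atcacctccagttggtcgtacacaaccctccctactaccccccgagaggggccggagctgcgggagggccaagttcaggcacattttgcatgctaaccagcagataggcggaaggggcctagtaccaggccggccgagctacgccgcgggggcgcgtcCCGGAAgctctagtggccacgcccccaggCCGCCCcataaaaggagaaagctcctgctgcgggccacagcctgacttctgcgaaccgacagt

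RefSeq promoters of 300 bases were found for 173 of the 213 members by symbol and were set beside 27025 promoters of all genes. CCGGAA stood in 36.4% of member promoters and 15.2% of all promoters. CCAAT stood in 52.0% against 37.9%, GGGCGG in 50.9% against 35.9%, and ACTACA in 21.4% against 10.7%. TATAAA was less frequent, at 6.94% against 14.2%. Member promoters held a median of 15 CpG pairs, against 7 over all promoters. The sets also differ in RNA, since members had passed the UMI minimum and the promoters of all genes were not chosen by it. Whether promoters of other genes past that minimum show the same differences was not tested, so these contrasts cannot be assigned to the Zfp name. Among KRAB members CCAAT stood in 57.1% and GGGCGG in 42.9%, and among the others in 45.3% and 61.3%. Matches of different motifs can share bases, and a match is a description of letters only.

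Levels were low and spread over many genes. In Cd3-positive nuclei the median member had 12.4 CPM in the knockout and 11.9 CPM in the control library, and 114 members were above 10 CPM in both. The members together summed to 5531 CPM in knockout and 5286 CPM in control Cd3-positive nuclei. In Cd3-low nuclei they summed to 6187 CPM in the knockout and 6099 CPM in the control library. KRAB members accounted for 1815 and 1778 CPM of these sums in knockout and control Cd3-positive nuclei. The 10 members with the highest level held 33.0% of all member UMIs of that population.

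Zfp36 was the highest member, with 296 CPM in knockout and 253 CPM in control Cd3-positive nuclei (2176 and 2047 UMIs). In Cd3-low nuclei it had 919 CPM in the knockout and 824 CPM in the control library. The Cd3-positive population was thus the lower one in both libraries, and the counting intervals of the populations did not overlap. Levels of single clusters did overlap. Cd3-positive clusters other than cluster 4 had 113 to 417 CPM, and Cd3-low clusters had 233 to 1258 CPM. Cluster 4 had 403 CPM and held 55.6% of the Cd3-positive UMIs of Zfp36. Per kilobase of gene, Zfp36 also ranked first at 79.2 CPM, over a gene of 3.47 kb (chr7:28376784-28380253 on mm10, minus strand). Nuclear RNA includes unspliced transcripts, so raw CPM favours long genes.

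The members next in raw level have varied roles in chromatin, mitosis and RNA. Zfp292, a large C2H2 protein, had 214 CPM in knockout and 206 CPM in control Cd3-positive nuclei. Zfp407 had 217 and 185 CPM there, over a gene of 462 kb. Zfp654 had 179 CPM in both, and Zfp644, a partner of the G9a/GLP histone methyltransferases, had 179 and 172 CPM. Zfp207 (BuGZ), which carries Bub3 to kinetochores, had 168 and 151 CPM. Zfp148 (ZBP-89), a binder of GC-rich DNA, had 168 and 151 CPM, and Zfp638 (NP220), which silences unintegrated retroviral DNA, had 160 and 152 CPM. Zfp91, a ubiquitin ligase of the alternative NF-kappaB pathway, had 163 and 143 CPM, and Zfp326, a subunit of the DBIRD complex that links mRNA processing to RNA polymerase II, had 119 and 120 CPM. Genotypes differed by less than 1.5-fold for each of these genes. Per kilobase the order after Zfp36 was Zfp830 (12.95 CPM), Zfp869 (12.7 CPM), Zfp281 (9.89 CPM) and Zfp207 (7.10 CPM).

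**Figure D1:**
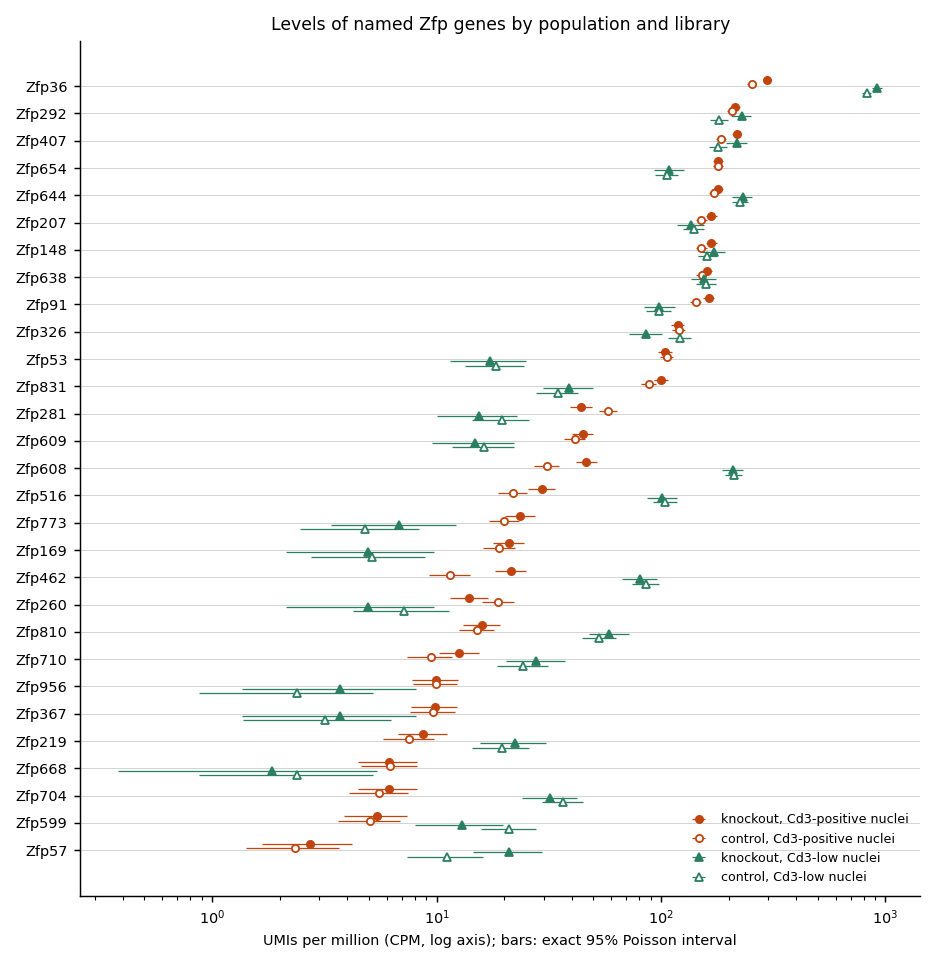
Level of named Zfp genes (rows, ordered by level) in CPM on a log axis, in Cd3-positive nuclei (circles) and Cd3-low nuclei (triangles) of the knockout (filled) and control (open) libraries, with exact 95% Poisson intervals. Zfp36 lies at 296 and 253 CPM in Cd3-positive nuclei and at 919 and 824 CPM in Cd3-low nuclei, while Zfp53 shows the reverse order.

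More members passed 1.5-fold between the populations than between the genotypes. A member was called past the fold when its CPM differed by at least 1.5-fold in the same direction in both libraries, with at least 50 UMIs in the compared nuclei. Of 212 members that could be called, 26 were higher (12.3%) and 22 lower (10.4%) in Cd3-positive than in Cd3-low nuclei, below the 17.1% and 15.8% of all 11353 genes. In bulk sums of this kind, fewer expressing nuclei and less RNA per nucleus cannot be told apart. The median gene with at least 100 UMIs had a log2 ratio of 0.12 in the knockout and 0.10 in the control library, and the ratios below are not shifted by it.

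The counts were also split by KRAB match, after the data had been seen. Of 112 KRAB members, 17 were higher (15.2%) and 7 lower (6.25%) in Cd3-positive nuclei of both libraries, and of 100 members without a match 9 were higher and 15 lower, beside the 17.1% and 15.8% of all genes. The 17 KRAB members became 9 after thinning nuclei to 1000 UMIs and 10 when nuclei were sorted by their own Cd3 UMIs, and the 7 became 11 without the high-UMI clusters. Thinning also left out nuclei under 1000 UMIs, and sorting by Cd3 UMIs counted every nucleus without one as low. No share of all genes is given at these settings, so the changed counts have no background. Lost counts and lost ratios cannot be told apart in them. The median log2 ratio of KRAB members was 0.28 in the knockout and 0.24 in the control library (79 and 88 members with at least 50 UMIs). Members without a match had medians of -0.01 and -0.08 (82 and 86 members), beside 0.11 and 0.08 over all genes. Members of one array share sequence and neighbourhood and are not independent. The difference between the classes was not tested.

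Zfp53 had the highest ratio in favour of Cd3-positive nuclei among members with at least 100 UMIs. It is a KRAB gene of an array on chromosome 17 (chr17:21488998-21510473 on mm10, plus strand). It had 104 CPM in knockout and 106 CPM in control Cd3-positive nuclei, and 17.3 and 18.3 CPM in Cd3-low nuclei. The log2 ratio was 2.56 in the knockout library (2.04 to 3.18) and 2.52 in the control library (2.10 to 2.99). With nuclei sorted by their own Cd3 UMIs in place of clusters it was 1.10 and 1.33, below those intervals. All 12 Cd3-positive clusters other than cluster 4 had between 64.8 and 195 CPM, above each of the 5 Cd3-low clusters (2.60 to 52.1 CPM). Nearby on the same strand, Zfp52 (chr17:21535539-21562601), named after its values were seen, had 75.1 CPM in knockout and 78.2 CPM in control Cd3-positive nuclei, against 120 CPM in Cd3-low nuclei of both libraries. These genes thus had opposite ratios, with log2 values of -0.68 (-0.91 to -0.43) in the knockout and -0.62 in the control library for Zfp52.

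Zfp169 and Zfp773 were other KRAB members with this direction. Zfp169 had 20.96 CPM in knockout and 19.1 CPM in control Cd3-positive nuclei, against 4.95 and 5.18 CPM in Cd3-low nuclei. Zfp773 had 23.5 and 20.1 CPM, against 6.81 and 4.78 CPM in Cd3-low nuclei. Their log2 ratios were 2.00 and 1.83 for Zfp169 and 1.73 and 2.01 for Zfp773 in the knockout and control libraries.

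Members without a KRAB match that leaned the same way included several with known partners or roles. Zfp281 (ZBP-99), a relative of Zfp148 known from pluripotent cells, had 44.0 CPM in knockout and 57.9 CPM in control Cd3-positive nuclei, against 15.5 and 19.5 CPM in Cd3-low nuclei (log2 ratios 1.48 and 1.56). Zfp148 itself was even between populations, with log2 ratios of -0.04 and -0.09. Zfp831, which has been linked to follicular helper T cells, had 100 CPM in knockout and 88.1 CPM in control Cd3-positive nuclei, and 39.0 and 34.7 CPM in Cd3-low nuclei. Its highest cluster level was 251 CPM, in Cd3-positive cluster 12, whose leading genes are heat-shock genes such as Hspa1a. Zfp260, Zfp956, Zfp367 and Zfp668 complete the upper end, with log2 ratios of 1.27 to 1.94 over both libraries. With nuclei sorted by their own Cd3 UMIs, Zfp260 (0.37 and 0.45) and, in the control library, Zfp668 (0.38) no longer passed the fold. After thinning, Zfp260 (0.45) and Zfp367 (0.44) did not pass it in the knockout library. All 10 genes of the upper end had smaller ratios by that sorting than by clusters, in both libraries. They had been chosen for high ratios by clusters, and that sorting places nuclei of Cd3-positive clusters without a Cd3 UMI in the low group. Nothing about the genes follows from the smaller ratios. Zfp367 was highest in the dividing cluster 19, at 159 CPM.

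The 10 members at the lower end were 7 without a KRAB match and 3 with one. Zfp608 and Zfp609 are paralogues, and both have been linked to the control of Rag genes in thymocytes. Zfp608 had 46.4 CPM in knockout and 30.95 CPM in control Cd3-positive nuclei, against 209 and 211 CPM in Cd3-low nuclei (log2 ratios -2.17 and -2.77). Zfp609 had 44.8 and 41.4 CPM, against 14.9 and 16.3 CPM (log2 ratios 1.56 and 1.32). The paralogues were therefore opposite in both libraries, and none of the 4 intervals reached 0.

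Zfp462, a chromatin protein of stem cells, had 21.4 CPM in knockout and 11.5 CPM in control Cd3-positive nuclei, against 80.4 and 85.6 CPM in Cd3-low nuclei. Zfp516, a coactivator of brown fat genes, had 29.4 and 21.9 CPM, against 101 and 104 CPM. Zfp704 had 6.12 and 5.57 CPM, against 32.2 and 36.7 CPM. Zfp521, an inhibitor of the B-cell factor Ebf1 in progenitors, had 7 and 12 UMIs in Cd3-positive nuclei, against 21 and 34 UMIs in Cd3-low nuclei. All 19 of its Cd3-positive UMIs lay in cluster 4, and the other 12 Cd3-positive clusters had 0.

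Cluster 4 supplied most of what these genes had in the Cd3-positive population. It held 93.4% of the Cd3-positive UMIs of Zfp608, 89.6% of those of Zfp462, 83.3% for Zfp704 and 75.6% for Zfp516, against 29.8% for Zfp53. Zfp608 was at 94.6 CPM in cluster 4, at 0 to 24.4 CPM in the other Cd3-positive clusters and at 99.1 to 279 CPM in the Cd3-low ones. Without the high-UMI clusters the log2 ratios of Zfp608 were -5.60 in the knockout and -5.91 in the control library, and those of Zfp462 were -4.79 and -5.21.

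**Figure D2:**
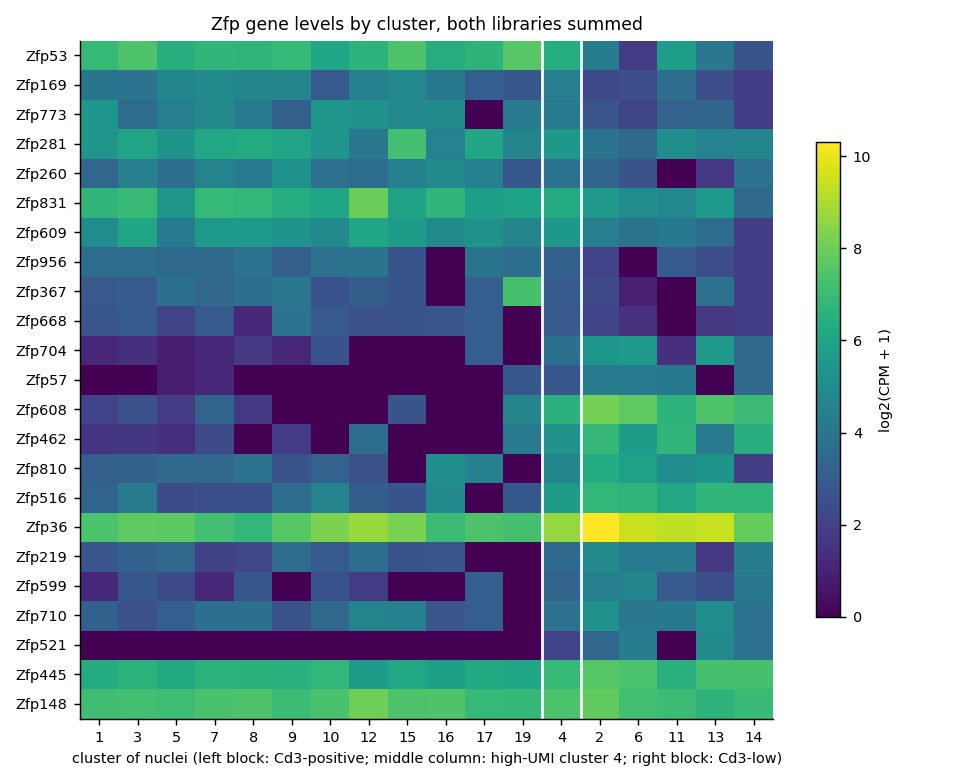
Level of named Zfp genes (rows) in each cluster of nuclei (columns) as log2(CPM + 1), both libraries summed; the left block holds 12 Cd3-positive clusters, the middle column is high-UMI cluster 4 and the right block holds 5 Cd3-low clusters. Zfp608, Zfp462, Zfp704 and Zfp516 are bright in the right block and in cluster 4, and Zfp53 is bright across the left block.

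KRAB members at the lower end were Zfp57, Zfp810 and Zfp599. Zfp57, which with Trim28 keeps methylation at imprinted regions, had 2.72 CPM in knockout and 2.35 CPM in control Cd3-positive nuclei (20 and 19 UMIs). In Cd3-low nuclei it had 21.04 and 11.2 CPM (34 and 28 UMIs), and 89.7% of its Cd3-positive UMIs lay in cluster 4. Zfp445, another KRAB protein known to guard imprints, had 112 and 90.5 CPM, against 168 and 158 CPM in Cd3-low nuclei (log2 ratios -0.59 and -0.81). Zfp810 had 15.9 and 15.1 CPM, against 58.8 and 53.0 CPM. Zfp219 and Zfp710, without a KRAB match, had log2 ratios between -1.15 and -1.37.

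**Figure D3:**
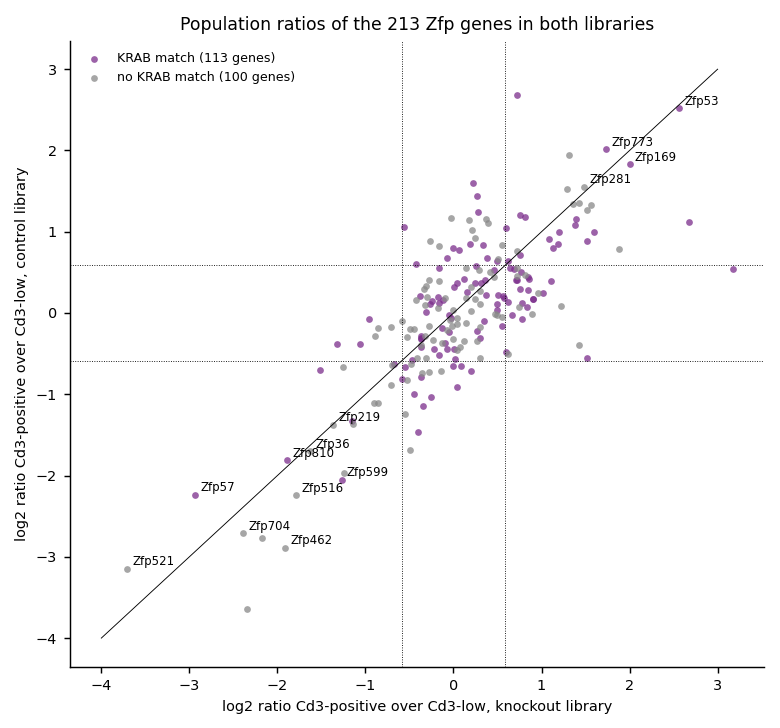
log2 ratio of Cd3-positive over Cd3-low nuclei for each of the 213 Zfp genes in the knockout library (x axis) and the control library (y axis), coloured by KRAB match; dotted lines mark 1.5-fold and the solid line equal ratios. Zfp53 lies at 2.56 and 2.52 and Zfp521 at -3.70 and -3.15, both near the line of equal ratios.

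The smaller role lists were chosen by known function. Zfp809, which recognises the primer binding site of murine leukaemia virus, had log2 ratios of 0.73 in the knockout and 0.40 in the control library. Zfp568, a repressor of placental Igf2, had -0.40 and -1.47. Of 7 members linked to RNA or ribosomes (Zfp36, Zfp106, Zfp207, Zfp346, Zfp598, Zfp622 and Zfp638), Zfp36 alone passed the fold in both libraries. By the same rule 17.1% of all genes were higher and 15.8% lower, and no statement about this list follows from its count. Zfp598, the ubiquitin ligase of collided ribosomes, had 17.96 CPM in knockout and 15.1 CPM in control Cd3-positive nuclei, and Zfp622, which acts in 60S ribosomal subunit maturation, had 57.7 and 60.7 CPM. Zfp592 and Zfp687 of the Z3 complex had 70.5 and 62.8 CPM, and 14.02 and 12.6 CPM, in knockout and control Cd3-positive nuclei. Zfp384, the closest relative of Zfp362, had 29.1 and 25.1 CPM there, with a genotype log2 ratio of 0.21 (-0.07 to 0.50). Zfp318 and Zfp35, studied in lymphocytes, had 11.02 and 11.4 CPM and 3.27 and 3.71 CPM there.

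The genes through which KRAB proteins act were measured beside them. Of 24 corepressor genes, 3 were at least 1.5-fold higher (Chd3, Dnmt1 and Kdm1a) and 1 lower (Smarcad1) in Cd3-positive nuclei of both libraries. Of all genes 17.1% were higher and 15.8% lower, and no statement about the list follows from its counts. Trim28 had 35.4 CPM in knockout and 44.6 CPM in control Cd3-positive nuclei (log2 ratio -0.33, -0.57 to -0.10), and Setdb1 had 26.5 and 26.6 CPM. Between genotypes Uhrf1 alone passed 1.5-fold over all Cd3-positive nuclei, with 25 UMIs in knockout and 51 in control nuclei (log2 ratio -0.88). Without the high-UMI clusters its ratio was 0.13, so the call was lost and the direction turned. Between genotypes 4.09% of all genes were higher and 3.03% lower by 1.5-fold in knockout Cd3-positive nuclei.

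Promoter accessibility was read from peaks within 1 kb of the interval that the deposited feature table gives for a gene, which is 0.001 kb long at Zfp281, 2.26 kb at Zfp53 and 63.5 kb at Zfp462. Values are peak CPM, scaled to the counts in peaks that both libraries share. A promoter peak was present in both libraries for 206 of 213 members (96.7%), and for 93.1% of all genes with at least 50 UMIs. Zfp831, Zfp992, Zfp991, Zfp626 and Zfp433 had none, Zfp811 had one only in the knockout and Zfp536 only in the control library. The median member promoter had 47.1 peak CPM in knockout and 48.8 in control Cd3-positive nuclei. KRAB members had medians of 36.1 and 36.0, and the others 61.4 and 62.8.

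Fewer members passed the fold in promoter accessibility than in RNA. Of 206 members, 1 promoter was higher (0.485%) and 7 were lower (3.4%) in Cd3-positive nuclei by at least 1.5-fold in both libraries, against 4.07% and 6.72% of 10771 genes. Zfp664 was the higher one, with log2 ratios of 0.76 and 0.77. The lower ones were Zfp462, Zfp521, Zfp704, Zfp608, Zfp618, Zfp57 and Zfp568, of which Zfp618 was named after its values were seen. At Zfp462 the promoter peaks had 12.1 peak CPM in knockout and 11.7 in control Cd3-positive nuclei, against 50.3 and 70.4 in Cd3-low nuclei (log2 ratios -2.07 and -2.57). At Zfp704 the log2 ratios were -1.44 and -1.60, and at Zfp57 they were -0.87 and -0.90.

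At Zfp53, by contrast, the promoter peaks, which include the one over the sequence printed above, had 30.0 peak CPM in knockout and 32.4 in control Cd3-positive nuclei, and 29.5 and 29.9 in Cd3-low nuclei. The log2 ratio was 0.03 (-0.27 to 0.36) in the knockout and 0.11 (-0.18 to 0.42) in the control library, and both intervals lie below the RNA intervals. The promoters of Zfp260 (0.15 and 0.11), Zfp281 (0.30 and 0.23) and Zfp169 (0.29 and 0.17) were also close to even. Zfp36 had promoter ratios of -0.15 and -0.01 beside RNA ratios of -1.63 and -1.70, and Zfp810 had 0.39 and 0.15 beside -1.89 and -1.81. Across 168 members with enough counts, RNA and promoter ratios had a Spearman correlation of 0.35 in the knockout and 0.42 in the control library. The points of one library share its nuclei and depth, and the correlation is a description.

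Peaks elsewhere in the gene, outside that window, separated the populations at some of the genes with even promoters. The window follows the deposited feature table, so at a few genes, Zfp608 and Zfp462 among them, such a peak lies at a start that GENCODE M21 gives. At Zfp260 an exonic peak centred 4.76 kb after the gene start (chr7:30099084-30099983 in the knockout library, mm10) had 13.02 peak CPM in knockout Cd3-positive nuclei and 0.8345 in knockout Cd3-low nuclei. The matching control values were 17.8 and 2.63. At Zfp281 an exonic peak 4.33 kb after the start had 7.35 and 8.46 peak CPM in knockout and control Cd3-positive nuclei, against 0.8345 and 1.55 in Cd3-low nuclei. At Zfp773 an exonic peak 5.99 kb after the start had 5.67 and 5.22 peak CPM, against 0.417 and 1.31. These 3 peaks were higher in Cd3-positive nuclei of both libraries. Their Cd3-low values rest on few counts in the knockout and control libraries: 6 and 22 at Zfp260, 6 and 13 at Zfp281, and 3 and 11 at Zfp773. The lowest end of their log2 ratio intervals was 0.71, at Zfp773 in the control library. Zfp810 had the reverse, with 2.698 and 1.71 peak CPM at its exonic peak, against 7.51 and 10.04 in Cd3-low nuclei. Zfp57 had 6.57 and 4.10 peak CPM outside its promoter, against 20.03 and 18.9. Zfp608 had 21 such peaks in the knockout and 23 in the control library, which summed to 89.2 and 82.1 peak CPM in Cd3-positive nuclei, against 206 and 247 in Cd3-low nuclei. The sums include a peak over the GENCODE start, with 6.53 and 6.03 peak CPM in Cd3-positive nuclei, against 21.3 and 24.9 in Cd3-low nuclei. Zfp53 had 1 such peak with few counts and no common direction in the libraries.

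Both libraries had such a peak at 22.1% of KRAB members and 60.0% of members without a match (39.9% of all members), beside 59.8% of all genes. The shares past the fold were near the background. Of the 81 members with enough fragments, 16 were higher (19.8%) and 17 lower in Cd3-positive nuclei by at least 1.5-fold in both libraries, beside 19.7% and 18.7% of all genes.

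**Figure D4:**
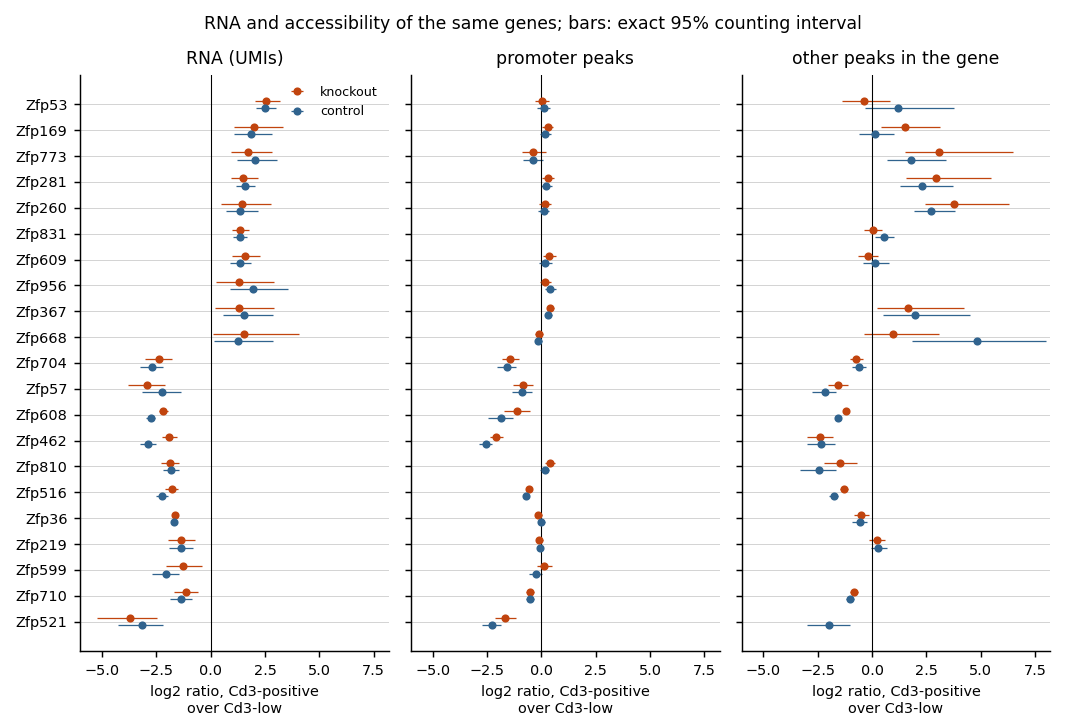
log2 ratio of Cd3-positive over Cd3-low nuclei for named Zfp genes (rows) in RNA, promoter peaks and other peaks within the gene (outside the promoter window), for the knockout (red) and control (blue) libraries, with exact 95% counting intervals; upper ends are drawn to 8, and a missing point means no peak. Zfp53 is at 2.56 and 2.52 in RNA and at 0.03 and 0.11 in promoter peaks, whereas Zfp462 is below 0 in every panel.

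Between genotypes the members moved little. Of 194 members with at least 50 UMIs in Cd3-positive nuclei, 7 were at least 1.5-fold higher (3.61%) and 6 lower (3.09%) in the knockout library, beside 4.09% and 3.03% of 10667 genes. The median log2 ratio was 0.02, beside 0.00 over all genes. Among KRAB members 4 were higher and 6 lower of 101, and among the others 3 were higher and 0 lower of 93. All but 2 of the 13 had under 200 UMIs, where 8.99% and 6.5% of all genes pass the fold. The shares are near the background, and no statement about the class follows from them.

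Zfp462 and Zfp608 had the clearest higher values in the knockout library, and both depend on cluster 4. Zfp462 had a log2 ratio of 0.89 (0.51 to 1.28) and Zfp608 of 0.58 (0.34 to 0.83). Without the high-UMI clusters they were 0.33 (-1.03 to 1.62, on 10 and 13 UMIs) and 0.29 (-0.79 to 1.32, on 15 and 20 UMIs). Within cluster 4 alone Zfp608 had 88.0 CPM in knockout and 106 CPM in control nuclei (log2 ratio -0.27, -0.52 to -0.02). Zfp462 had 39.8 and 36.0 CPM there (0.14, -0.26 to 0.56). Zfp704 and Zfp810 were lower within cluster 4, at -0.75 (-1.44 to -0.05) and -0.67 (-1.15 to -0.19), and Zfp831 was higher, at 0.42 (0.13 to 0.73). Other named genes also had intervals leaving out 0 there. Zfp91 (0.30), Zfp932 (0.90) and Zfp367 (1.10) were higher, and Zfp868 (-0.47) and Zfp521 (-1.52) were lower. Zfp516 had 0.42 over all Cd3-positive nuclei, -0.06 within cluster 4 and -0.41 without the high-UMI clusters. Zfp36 had 0.22 (0.14 to 0.31) over all, 0.01 within cluster 4 and -0.11 (-0.25 to 0.03) without those clusters.

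Other members kept their direction without the high-UMI clusters. Zfp934, a KRAB gene with shared sequence, had 9.80 CPM in knockout and 5.57 CPM in control nuclei (72 and 45 UMIs), with a log2 ratio of 0.81 and 1.12 without those clusters. Zfp180 had 101 and 78 UMIs (0.51, and 0.77 without them), and Zfp942, a KRAB gene, had 53.3 and 40.0 CPM (0.42 and 0.43). Zfp932, a KRAB protein of endogenous retroviruses, had 0.64, and 0.34 without them. Zfp653, Zfp1 and Zfp740 had ratios from 0.36 to 0.52.

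Zfp84 had the lowest value among members with at least 100 UMIs, with 10.1 CPM in knockout and 16.96 CPM in control nuclei (74 and 137 UMIs). Its log2 ratio was -0.75 (-1.18 to -0.33), and -0.73 without the high-UMI clusters. Zfp281 had -0.40 (-0.61 to -0.19) and -0.53, on 323 and 468 UMIs. Zfp703, a transcriptional repressor, had -0.52 and -0.68, and Zfp868, a KRAB gene with 260 and 398 UMIs, had -0.48 and -0.49. Zfp429, Zfp511, Zfp574, Zfp664, Zfp260 and Zfp646 had values from -0.59 to -0.40. Cluster 15, where Zfp281 was highest at 147 CPM, held 9 knockout and 80 control nuclei. In cluster 7 Zfp281 had 51.0 CPM in knockout and 89.5 CPM in control nuclei, and in cluster 8 it had 55.8 and 86.1 CPM. These values are given without intervals, and cluster 7 held 159 knockout and 235 control nuclei and cluster 8 held 78 and 301. Genotype levels in most other Cd3-positive clusters are not given, so no general decrease within clusters follows. In cluster 4 Zfp281 was even, at 43.9 CPM in knockout and 43.4 CPM in control nuclei (log2 ratio 0.01, -0.36 to 0.40). With the knockout clusters weighted to the control shares, Zfp281 had -0.34 and Zfp84 had -0.60.

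**Figure D5:**
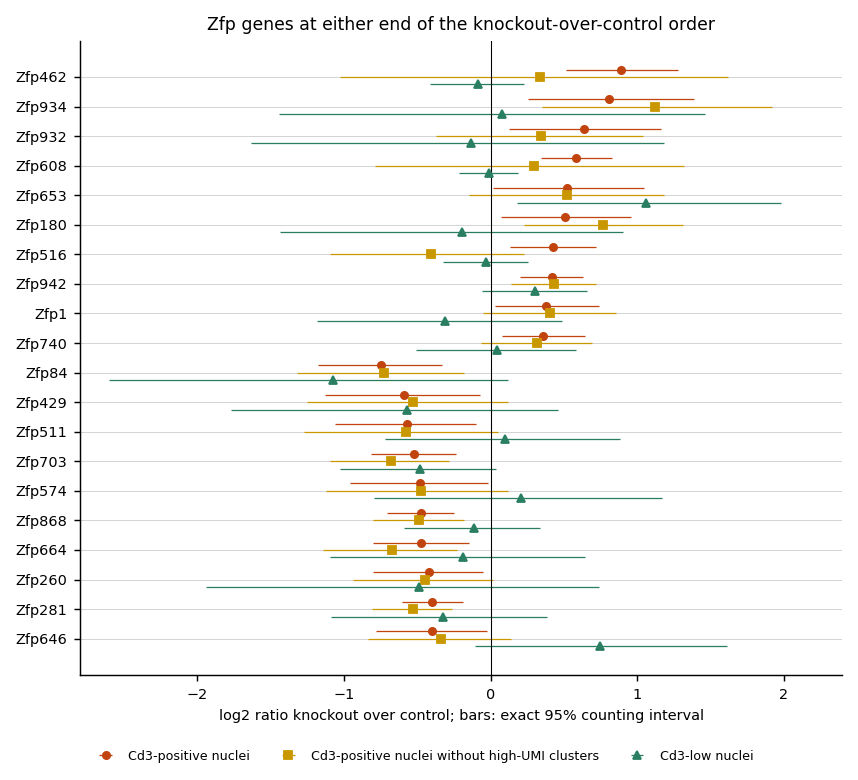
log2 ratio of the knockout over the control library for Zfp genes at either end of the order (rows), in Cd3-positive nuclei (circles), the same without high-UMI clusters (squares) and Cd3-low nuclei (triangles), with exact 95% counting intervals. Zfp462 lies at 0.89 with and 0.33 without the high-UMI clusters, and Zfp84 stays at -0.75 and -0.73.

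In Cd3-low nuclei 4 of 101 members were at least 1.5-fold higher (3.96%) and 14 lower (13.9%) in the knockout library, beside 3.28% and 4.75% of 7309 genes. All 18 had under 200 UMIs, a range in which 5.63% and 19.7% of 71 members and 5.01% and 8.11% of all genes passed. KRAB members were lower in 8 of 37 cases and the others in 6 of 64. The median log2 ratio of the 101 members was -0.06, beside -0.02 over all genes. It turned to 0.0276 after thinning and 0.0014 with nuclei sorted by their own Cd3 UMIs. Among named genes, Zfp568 had 13 UMIs in the knockout and 42 in the control library, with a log2 ratio of -1.02 (-2.08 to -0.13). Zfp57 was higher, with 34 and 28 UMIs (0.91, 0.15 to 1.69). Most of these intervals are wide, and none of the 29 members with 200 or more but under 1000 UMIs passed the fold.

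Promoters showed no member past the fold between genotypes. Of 206 members 0 were higher and 0 lower by 1.5-fold in knockout Cd3-positive nuclei, beside 0.937% and 0.197% of 10678 genes. Of the members lower in RNA, Zfp84 had 42.7 peak CPM in knockout and 47.00 in control Cd3-positive nuclei, and Zfp281 had 48.1 and 51.8. Both promoters were thus slightly lower in the knockout library, by less than the fold. Single promoter values of the other members lower in RNA are not given for the genotypes.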

How the data were processed

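Nuclei were profiled for RNA and accessible chromatin. The deposited matrices hold raw counts per barcode, for UMIs per gene and for peaks called separately in each library, which the authors made on mm10, per the submitters' processing notes. The file headers name Cell Ranger ARC 2.0.1. Over 90% of peak values were even (90.7% in the knockout and 91.7% in the control library), so intervals for peaks used fragments, at 2 counts each, with odd counts rounded up. Kept barcodes had 500 or more UMIs, 300 or more genes and mitochondrial UMIs of 10% or less. Scrublet marked 1 nucleus per library and was taken not to have worked, so doublets were not removed. Both libraries were clustered together (scanpy 1.11.5, leidenalg 0.10.2; 2000 variable genes without the members, 30 components, 15 neighbours, Leiden resolution 1.0). Clusters with a Cd3 level under 0.3333 of the median over clusters and at least 3 raised markers of innate lymphoid cells were called Cd3-low, others of low Cd3 were left out, and the rest were Cd3-positive. High-UMI clusters had a median depth over 2 times that of all nuclei.

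UMIs were summed per library and population and given as CPM. log2 ratios used a pseudocount of 0.5 UMI and exact conditional 95% intervals, and levels used Poisson intervals. Both intervals cover counting error only, and the computation was tested on simulated counts. A KRAB match needed 13 of 18 positions of the A box in the longest reading frame of a transcript. Named members were the 10 highest in Cd3-positive nuclei, the 10 at either end of both ratios with at least 100 UMIs (for genotypes also with an interval leaving out 0 and no nucleus above 20% of UMIs), and those on lists of known roles. Outside this rule, Zfp52, Zfp618 and Zfp672 were named after their values were seen. Other genes were named only for lying near the UMI minimum, for their rank per kilobase or for a promoter peak missing from a library. The members, lists and thresholds were chosen with earlier results of these data known. Alternatives were other clusters, depth, scaling, minimum counts, folds and promoter windows.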

Additional observations from a re-analysis of the deposited data

Results flagged for a closer look

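Zfp672, a C2H2 gene without a KRAB match, was the 1 member whose knockout-over-control intervals left out 0 in opposite directions in the populations. Its log2 ratio was 0.28 (0.06 to 0.51) in Cd3-positive nuclei, on 344 knockout and 311 control UMIs, and -0.57 (-1.03 to -0.13) in Cd3-low nuclei, on 61 and 141 UMIs. The difference was not tested, and it was picked from 213 members after their values were seen.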

How the results depend on the processing

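No paired analysis was possible because each genotype has 1 library. Leaving out the high-UMI clusters gave 4 in place of 7 members higher in knockout Cd3-positive nuclei, and 11 in place of 7 KRAB members lower in Cd3-positive than in Cd3-low nuclei. A member minimum of 200 UMIs left 1 member higher and 1 lower between genotypes, as did a fold of 2. For Cd3-positive over Cd3-low it left 16 higher and 13 lower, and the fold of 2 left 12 higher and 14 lower. Counting members and calls from 20 UMIs, chosen after seeing the data, gave 20 higher and 13 lower between genotypes and 35 members lower in Cd3-positive nuclei. No share of all genes is given beside the counts at changed settings in this section. These counts therefore have no background and cannot be read as an excess or a lack. Thinning to 1000 UMIs and sorting single nuclei by their Cd3 UMIs each left 16 members higher in Cd3-positive nuclei, of which KRAB members were 9 and 10, a split chosen after seeing the data. The median genotype ratio in Cd3-low nuclei was 0.0276 after thinning and 0.0014 by single nuclei, against -0.06, and the cause was not tested. Zfp646 in Cd3-low nuclei, at 0.75, was -0.65 after thinning and -0.17 by single nuclei. Promoter windows of 200 bases and 2 kb left 203 and 207 members with a peak in both libraries. Of 57 named members, 5 moved outside their interval between genotypes in Cd3-positive nuclei without the high-UMI clusters, 4 with reweighted clusters and 12 after thinning. For Cd3-positive over Cd3-low, 11 moved in the knockout and 21 in the control library by single nuclei, 14 and 8 after thinning, and 9 and 10 without the high-UMI clusters, with 0 reversed. Depth limits members under 200 UMIs most, since their intervals often span a 1.5-fold difference.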
